A study of Mus musculus with 8 samples.

Results

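Activity-regulated genes are genes whose transcription in neurons follows electrical activity. A fixed list of 34 was examined, of which 27 were immediate-early genes and 7 were later genes, and all 34 were among the 14884 genes of the deposited count table. They were listed by name. They were examined in the primary somatosensory cortex of 4 male wild-type mice, numbered 33, 34, 35 and 36 and 3 months old. In each mouse the LNA218 hemisphere received a locked nucleic acid inhibitor of miR-218-5p and the opposite NC hemisphere a scrambled control. Polyadenylated RNA was taken from both injected sites 10 days later and gave 1 library per hemisphere, so 8 libraries. Both groups were injected and an uninjected cortex was not analysed here. LNA218 was on the right in 3 mice and on the left in 1, mouse 35.

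As background, calcium that enters an active neuron switches on kinases such as those of the CaMK and MAPK families. These act on transcription factors that wait on the DNA, among them CREB, SRF with its partners, and MEF2. Immediate-early genes are transcribed within minutes with no need for new protein, and many encode transcription factors. Later genes follow and mostly encode secreted or surface proteins that act on synapses. In cortex, transcripts such as Fos and Arc are widely used as marks of recently active neurons.

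Library totals ran from 17409882 to 25154657 estimated counts, and members had between 90 (Inhba) and 24117 (Arc) counts in a library. Levels of single genes are given as CPM, which are counts scaled to a common library size by the TMM method. Sums of markers are CPM scaled by the library total only, without TMM. Neither is corrected for gene length, so levels are not compared between genes. Every gene of the marker lists for excitatory and inhibitory neurons was detected in every library. Summed excitatory markers, led by Camk2a, ran from 5218 to 6117 CPM in LNA218 and from 5906 to 5988 CPM in NC. All 9 choroid plexus markers, led by Ttr, were above 0 in every library. Their sums in mice 33, 34, 35 and 36 were 90.4, 2621, 25.7 and 1747 CPM in LNA218, against 34.1, 35.4, 24.8 and 86.0 CPM in NC. Summed fibroblast markers ran from 173 to 233 CPM in LNA218 and from 108 to 149.8 CPM in NC. In bulk tissue, fewer cells of a type and less RNA per cell cannot be told apart.

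The injected inhibitor binds the mature microRNA, whose sequence is shown because its seed (bases 2 to 8, in capitals) defines the sites that could tie a member to it directly. RefSeq places this sequence on GRCm38.p6 at chr5:48223966-48223986 and at chr11:35616840-35616860, both on the plus strand.
mmu-miR-218-5p: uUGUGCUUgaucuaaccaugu
A match to this seed, AAGCACA, was found in the 3′ UTR of 3 of the 34 members (8.82%), namely Fosl2, Dusp5 and Egr1. Among the 13693 tested genes with an annotated 3′ UTR, 14.2% had a match. The median 3′ UTR was 1194.5 bases long over the members and 1002 bases over those genes. The sites of Fosl2, on chromosome 5, and of Dusp5, on chromosome 19, are printed with their flanks and with the seed match in capitals, so that they can be set beside the values of both genes.
Fosl2 site 1: ttgcatgcagAAGCACAcaggacacag
Fosl2 site 2: agagccctagAAGCACAagacagtgga
Fosl2 site 3: cggggccagaAAGCACAgccagctaaa
Dusp5 site 1: gccatgccccAAGCACAgtacgtgctg
Dusp5 site 2: acctaggaggAAGCACAattttcactg
Fosl2 site 2 and Dusp5 site 2 carried a further A after the match, the 8mer form AAGCACAA. The 3′ UTRs came from the transcript models of GENCODE M21, built on GRCm38. For each gene only 1 model was searched, chosen by the longest coding sequence, so sites in other models were not counted.

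Promoters are shown for Fos, Fosb and Nr4a1, the 3 members called between the 4 animals after a correction for GC content and length. Without that correction 0 members were called, and the test was added after the values had been seen. The windows run from 250 bases before to 50 bases after the RefSeq start on GRCm38.p6. They lie at chr12:85473640-85473939 on the plus strand (Fos), chr7:19309996-19310295 on the minus strand (Fosb) and chr15:101266596-101266895 on the plus strand (Nr4a1). Capitals mark TGACG, the core of the cAMP response element bound by CREB, or its reverse complement CGTCA.
Fos promoter: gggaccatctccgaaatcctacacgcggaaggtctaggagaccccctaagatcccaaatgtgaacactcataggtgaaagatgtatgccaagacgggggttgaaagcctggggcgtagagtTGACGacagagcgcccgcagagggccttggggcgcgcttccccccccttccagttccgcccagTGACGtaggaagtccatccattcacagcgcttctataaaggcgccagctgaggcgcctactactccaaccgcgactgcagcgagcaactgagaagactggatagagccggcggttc
Fosb promoter: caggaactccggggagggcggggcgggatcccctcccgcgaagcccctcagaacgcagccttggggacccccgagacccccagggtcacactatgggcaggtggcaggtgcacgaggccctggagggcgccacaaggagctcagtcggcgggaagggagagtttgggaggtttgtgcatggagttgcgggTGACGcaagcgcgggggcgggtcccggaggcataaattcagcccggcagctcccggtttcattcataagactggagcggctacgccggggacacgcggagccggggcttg
Nr4a1 promoter: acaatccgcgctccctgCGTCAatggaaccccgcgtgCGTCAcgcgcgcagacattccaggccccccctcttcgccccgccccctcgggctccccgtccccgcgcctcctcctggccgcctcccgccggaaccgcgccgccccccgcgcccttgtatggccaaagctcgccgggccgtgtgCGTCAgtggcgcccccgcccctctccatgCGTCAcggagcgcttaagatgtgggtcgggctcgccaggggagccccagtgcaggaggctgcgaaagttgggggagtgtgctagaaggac
The Fos window held TGACG at 129 and at 66 bases before the start, and a TATAAA at 33 bases before it. Nr4a1 held 4 matches, from 233 to 40 bases before the start, and Fosb held 1, at 60 bases before it. A promoter window was found for 26 members, and 18 of these genes (69.2%) had TGACG on either strand, against 23.0% of 27025 genes. The shares were 15 of 22 immediate-early genes and 3 of 4 later genes. A gene counts when any of its windows has a match, and Bdnf had 7 windows. By window the shares were 66.7% for immediate-early and 30% for later genes, against 20.8% of all windows. The full element TGACGTCA, which contains TGACG on both strands, was found for Plk2, Dusp1, Btg2, Scg2 and Pcsk1, in 13.5% of the members' windows and 1.79% of all windows. A CArG box, the element of SRF, was found for Egr2 and Dusp5, 7.69% of the 26 genes against 1.81% of all genes. No window was available for Egr1, Egr3, Arc, Sik1, Ier2, Nrn1, Nptx2 and Vgf. Sequence beyond the windows was not searched for any motif. The AP-1 motif TGANTCA was found for Bdnf only, 3.85% against 8.97%, and the EGR motif GCGTGGGCG for 0 of 26, against 0.707% of all genes. The letters TATAAA were found for 6 of 26 (23.1%), against 15.7%. Base composition and the number of windows per gene were not matched in these shares, and a match is not a binding site. The 27025 genes were all those with a promoter window, whether or not they were tested here.

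None of the 34 members differed between LNA218 and NC at an adjusted p under 0.05 (edgeR quasi-likelihood test with the animal as a block, Benjamini-Hochberg over 14506 tested genes), and every member had an adjusted p of 0.999. The same test called 0 genes in all (0%), with a lowest adjusted p of 0.533 in edgeR. At an unadjusted p under 0.05 it gave 0 members, against 160 genes higher (1.1%) and 87 lower (0.6%). DESeq2's Wald test also called 0 members, and 13 genes in all (0.0896%). Of the members, 17 were on the higher side and 17 on the lower side, with log2 fold changes from -0.30 to 0.35 and a median of -0.0023. The median over all tested genes was -0.0096. The median standard error was 0.13 for the members and 0.14 for all genes.

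Values from LNA218 and NC overlapped for all 34 members. Of all genes, 0.731% had LNA218 wholly above NC and 0.648% wholly below. In 4 of 4 animals, 0 members were higher in LNA218 (4.58% of all genes were) and 1, Nrn1, was lower (4.05% of all genes were). With shares this low over all genes, these counts do not set the 34 members apart. The direction depended on the animal: the LNA218 library was the higher one for 8, 21, 18 and 10 members in mice 33, 34, 35 and 36. The LNA218 library of mouse 34 held the highest of the 8 values for 20 of the 34 members, and that of mouse 36 the lowest for 15.

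**Figure D1:**
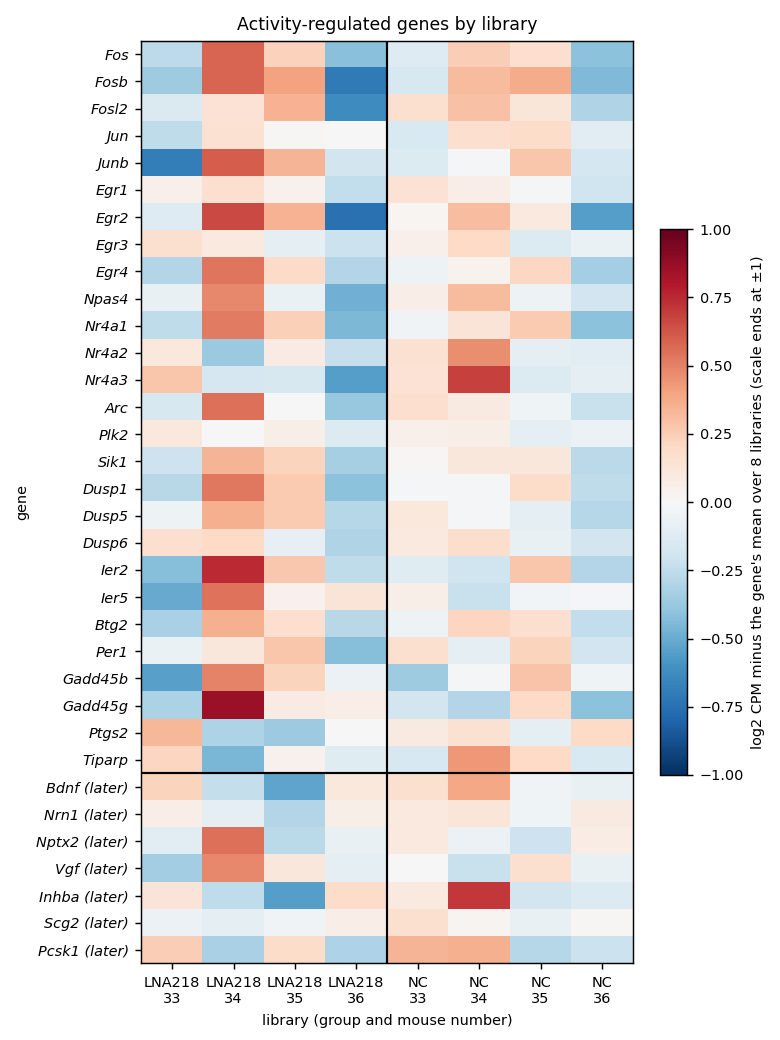
Levels of the 34 members in 8 libraries, as log2 CPM minus each gene's mean over the libraries, LNA218 left of the vertical line and NC right of it. Immediate-early genes are above the horizontal line and later genes below it. Most immediate-early rows are red in mouse 34 and blue in mouse 36 on both sides of the line, and the later rows are mixed.

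**Figure D2:**
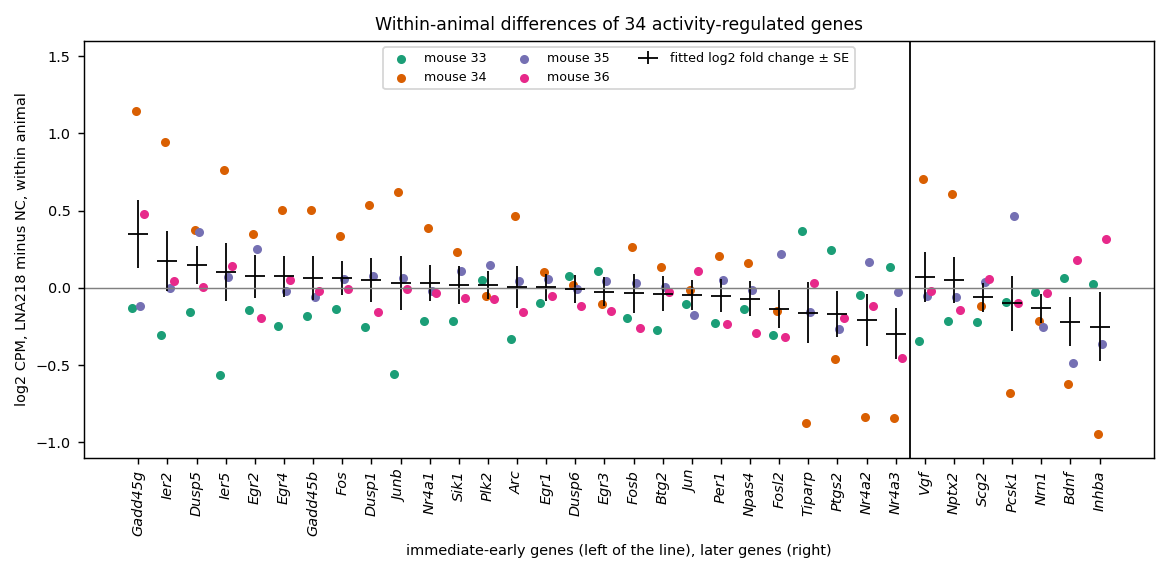
Log2 CPM of LNA218 minus NC within each animal (coloured points) and the fitted log2 fold change with its standard error (black), by gene. Points of mouse 34 lie farthest from 0 for many genes, on both sides, and fitted values run from -0.30 to 0.35.

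Fos and Jun proteins pair to form the transcription factor AP-1. Fos, the immediate-early gene most used as a mark of activity, had 52.9, 94.9, 74.5 and 47.5 CPM in the LNA218 hemispheres of mice 33, 34, 35 and 36, against 58.2, 75.3, 71.5 and 47.7 CPM in their NC hemispheres. Both hemispheres of mice 34 and 35 were above both hemispheres of mice 33 and 36, and the groups overlapped. Its log2 fold change was 0.064 ± 0.11 (SE). Fosb, whose splice form ΔFosB is long-lived, had 18.4, 35.2, 31.1 and 14.5 CPM in LNA218 against 21.1, 29.3, 30.5 and 17.4 CPM in NC in the same order of mice. The 4 libraries of mice 34 and 35 were again the highest, and the log2 fold change was -0.035 ± 0.13. Junb, an AP-1 partner with weaker transactivation than Jun, ran from 108 to 266 CPM in LNA218 and 154 to 212 CPM in NC, with within-animal log2 differences of -0.56, 0.62, 0.061 and -0.0068. Mice 33 and 34 thus went opposite ways by more than the fitted value of 0.032 ± 0.17. Jun ranged over 65.0 to 86.1 CPM in LNA218 and 69.9 to 88.0 CPM in NC, with a log2 fold change of -0.048 ± 0.10. Fosl2, which encodes Fra-2 and carries 3 of the printed sites, ranged over 34.9 to 68.5 CPM in LNA218 and 43.6 to 66.1 CPM in NC, with a log2 fold change of -0.14 ± 0.12 and lower values in LNA218 in 3 of 4 animals.

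The Egr family encodes zinc-finger transcription factors that bind GC-rich promoter elements. Egr1 had 625, 679, 622 and 509 CPM in LNA218 of mice 33 to 36, against 668, 633, 599 and 527 CPM in NC. Mouse 36 was lowest on both sides, the groups overlapped, and the log2 fold change was 0.0025 ± 0.089. Egr2, a factor known from hindbrain and myelin as well as from active neurons, ranged over 9.84 to 26.1 CPM in LNA218 and 11.3 to 20.4 CPM in NC. Its 2 lowest libraries were those of mouse 36, and its log2 fold change was 0.075 ± 0.14. For Egr3 and Egr4 the log2 fold changes were -0.025 ± 0.093 and 0.074 ± 0.13. Egr4 differed by 0.50 on the log2 scale in mouse 34 and by -0.24 in mouse 33.

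Npas4 is a transcription factor that responds to calcium entry in neurons and shapes inhibitory synapses. Its levels were 29.0, 42.5, 29.0 and 21.8 CPM in LNA218 of mice 33 to 36, against 31.9, 38.0, 29.4 and 26.7 CPM in NC. It was lower in LNA218 in 3 of 4 animals with overlapping groups, and the log2 fold change was -0.069 ± 0.12. The Nr4a genes encode orphan nuclear receptors. Nr4a1 had 201, 342, 282 and 176 CPM in LNA218 against 234, 261, 286 and 179.9 CPM in NC, a log2 fold change of 0.030 ± 0.12. As for Fos, the 4 libraries of mice 34 and 35 were the highest and those of mouse 36 the lowest.

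Its relatives Nr4a2 and Nr4a3 stood out from Nr4a1 in mouse 34. Nr4a3 had 69.6, 51.1, 51.2 and 39.2 CPM in LNA218 of mice 33 to 36, against 63.2, 91.8, 52.2 and 53.7 CPM in NC. The NC library of mouse 34 was the highest, its LNA218 library was the second lowest, and the log2 fold change was -0.30 ± 0.17, or -0.11 without mouse 34. Nr4a2, a factor needed by midbrain dopamine neurons, had 38.2, 27.5, 37.6 and 30.4 CPM in LNA218 against 39.5, 49.2, 33.5 and 32.9 CPM in NC. Its lowest and highest values were both in mouse 34, and the log2 fold change was -0.21 ± 0.17. Within mouse 34 the log2 difference was 0.39 for Nr4a1, -0.84 for Nr4a2 and -0.84 for Nr4a3.

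Arc, Plk2 and Sik1 act at synapses or in signalling back to the nucleus. Arc, which promotes the removal of AMPA receptors from synapses, had 589.6, 965, 657 and 505 CPM in LNA218 of mice 33 to 36, against 740.2, 698, 637 and 564 CPM in NC. The LNA218 libraries of mice 34 and 36 were the highest and the lowest of the 8, and the log2 fold change was 0.0057 ± 0.14. Plk2, a polo-like kinase that lowers synaptic strength after prolonged activity, was the steadiest of the 3, with 201 to 237 CPM in LNA218 and 207 to 229 CPM in NC and a log2 fold change of 0.019 ± 0.091. Sik1, a salt-inducible kinase that restrains the CREB coactivators of the CRTC family, ranged over 16.3 to 26.1 CPM in LNA218 and 17.1 to 22.3 CPM in NC, with a log2 fold change of 0.019 ± 0.12.

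The Dusp genes encode phosphatases that switch off MAP kinases. Dusp5, which acts on ERK in the nucleus and carries 2 of the printed sites, had 39.2, 51.9, 48.7 and 33.3 CPM in LNA218 of mice 33 to 36, against 43.6, 40.1, 37.9 and 33.2 CPM in NC. It was higher in LNA218 in 3 of 4 animals, by 0.0046 on the log2 scale in mouse 36, and the groups overlapped. Its log2 fold change was 0.15 ± 0.13. Dusp1, the broader nuclear phosphatase, ranged over 56.2 to 107 CPM in LNA218 and 62.7 to 85.1 CPM in NC, with a log2 fold change of 0.051 ± 0.14. Dusp6, which acts on ERK in the cytoplasm, had the smallest mean absolute within-animal difference of all members, 0.054 on the log2 scale, and a log2 fold change of -0.0070 ± 0.091.

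**Figure D3:**
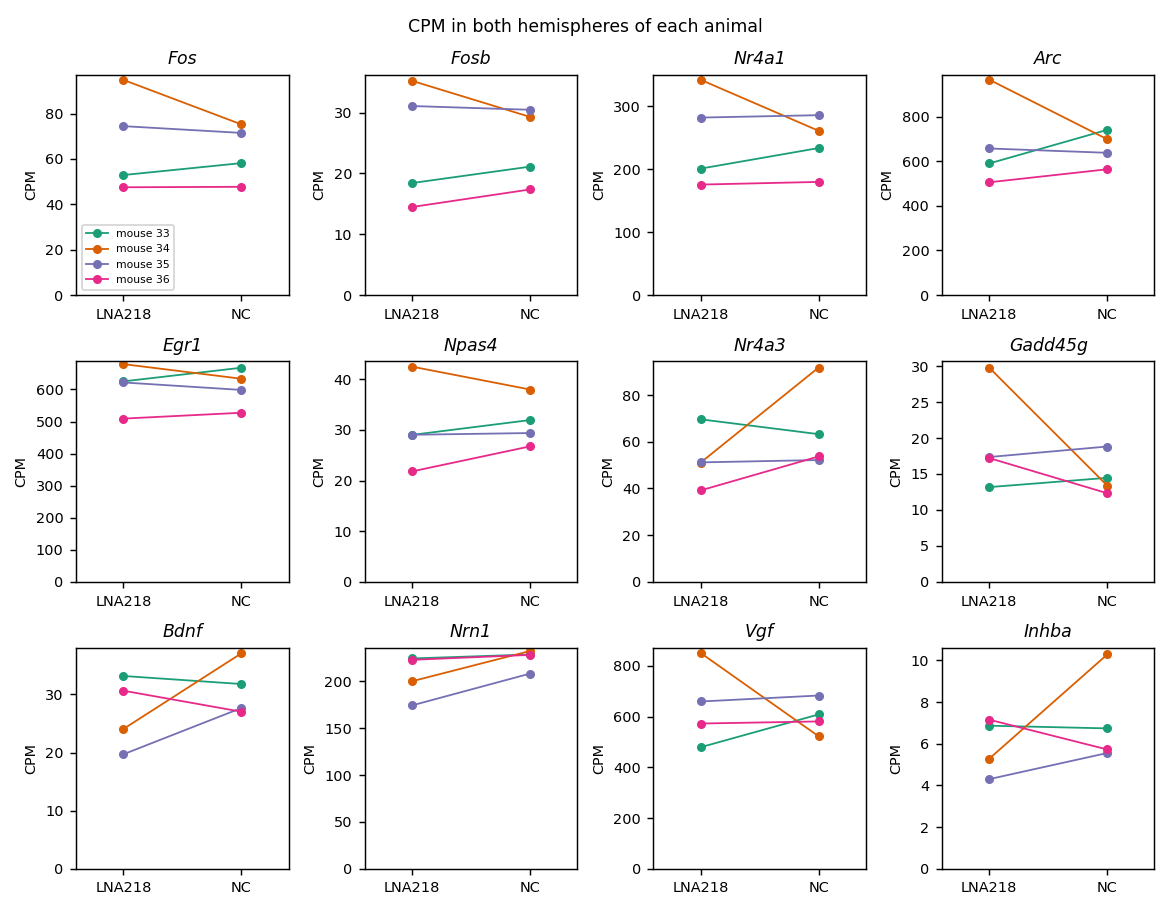
CPM of 12 members, drawn from 0, with LNA218 left and NC right and a line for each animal. For Fos, Fosb and Nr4a1 the lines of mice 34 and 35 lie above those of mice 33 and 36 on both sides, and for Gadd45g, Nr4a3, Vgf and Inhba the line of mouse 34 is the steepest.

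The other immediate-early members act in growth, stress and metabolism. Gadd45g, a stress protein that activates the kinase MTK1 upstream of p38 and JNK, had 13.2, 29.8, 17.4 and 17.2 CPM in LNA218 of mice 33 to 36, against 14.5, 13.4, 18.8 and 12.3 CPM in NC. One library, LNA218 of mouse 34, was far above the rest, and the other 7 overlapped between groups. Its log2 fold change of 0.35 ± 0.22 was the highest of the 34, and without mouse 34 it was 0.074. Gadd45b, a close relative, had a log2 fold change of 0.064 ± 0.14.

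Ier2, a nuclear protein of the growth factor response, had 22.0, 49.3, 35.6 and 24.7 CPM in LNA218 of mice 33 to 36, against 27.1, 25.6, 35.7 and 24.0 CPM in NC. The LNA218 libraries of mice 34 and 33 were the highest and the lowest, and the log2 fold change was 0.17 ± 0.20. Ier5, a protein linked to the heat-shock factor HSF1, differed in the same way in these animals, with a log2 fold change of 0.10 ± 0.19. Ptgs2, the inducible cyclooxygenase that starts prostaglandin synthesis, had 14.2, 9.08, 8.75 and 11.3 CPM in LNA218 against 11.98, 12.6, 10.5 and 13.0 CPM in NC. It was lower in LNA218 in 3 of 4 animals, mouse 33 being the exception, and its log2 fold change was -0.17 ± 0.15, or -0.065 without mouse 34.

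Tiparp, an ADP-ribosyltransferase that represses the aryl hydrocarbon receptor, had a log2 fold change of -0.16 ± 0.20, with within-animal differences from -0.88 in mouse 34 to 0.37 in mouse 33. Btg2, an antiproliferative partner of the mRNA deadenylase, had a log2 fold change of -0.038 ± 0.11. Per1, a repressor of the circadian clock that also responds to light and activity, had -0.050 ± 0.11.

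The 7 later genes encode secreted or surface proteins, or act in the granules that release them. Bdnf, the neurotrophin that activates the receptor TrkB, had 33.2, 24.1, 19.7 and 30.6 CPM in LNA218 of mice 33 to 36, against 31.8, 37.1, 27.7 and 27.0 CPM in NC. It was lower in LNA218 in mice 34 and 35 and higher in mice 33 and 36, and the log2 fold change was -0.22 ± 0.16, or -0.076 without mouse 34. Nrn1, the surface-anchored growth protein neuritin, had 225, 200.2, 174 and 223 CPM in LNA218 against 229, 233, 208 and 228 CPM in NC. It was the member that was lower in LNA218 in 4 of 4 animals, with log2 differences of -0.027, -0.22, -0.26 and -0.034 in mice 33 to 36. The groups still overlapped, because LNA218 of mice 33 and 36 lay above NC of mouse 35, and the log2 fold change was -0.13 ± 0.093.

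Inhba, the subunit of activin A, had 6.87, 5.28, 4.30 and 7.16 CPM in LNA218 of mice 33 to 36, against 6.74, 10.3, 5.56 and 5.73 CPM in NC. Its NC value in mouse 34 was the highest of the 8, and the log2 fold change was -0.25 ± 0.22. Nptx2, a pentraxin that clusters AMPA receptors, had 66.7, 106, 59.8 and 68.7 CPM in LNA218 against 77.3, 69.3, 62.4 and 75.8 CPM in NC. Vgf, a neuropeptide precursor, had 479, 851, 659.7 and 573 CPM in LNA218 against 609, 523, 683 and 581 CPM in NC. For both genes LNA218 of mouse 34 was the highest library and the other 3 animals were lower in LNA218. The log2 fold changes were 0.048 ± 0.15 for Nptx2 and 0.070 ± 0.16 for Vgf.

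Scg2, a granin that is cut into secretoneurin, had 163, 159.6, 167 and 178 CPM in LNA218 of mice 33 to 36, against 190.0, 174, 162 and 171 CPM in NC. The spread was small on both sides, and the log2 fold change was -0.061 ± 0.095. Pcsk1, the convertase that cuts proneuropeptides, had 38.7, 26.1, 37.1 and 26.4 CPM in LNA218 against 41.4, 41.7, 26.8 and 28.2 CPM in NC. Mice 34 and 35 went opposite ways, by -0.68 and 0.47 on the log2 scale, and the log2 fold change was -0.10 ± 0.18.

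Immediate-early and later genes were then set side by side. Of the 27 immediate-early genes, 15 were on the higher side and 12 on the lower, with a median log2 fold change of 0.0057. Of the 7 later genes, 2 were on the higher side and 5 on the lower, with a median of -0.10. Within animals the median log2 difference of the immediate-early genes was -0.15, 0.23, 0.043 and -0.065 in mice 33, 34, 35 and 36 (mean 0.014 ± 0.17, SD, n = 4). That of the later genes was -0.095, -0.22, -0.062 and -0.021 (mean -0.098 ± 0.084, SD, n = 4). Immediate-early minus later was -0.059, 0.45, 0.11 and -0.044, a mean of 0.11 ± 0.23 (SD, n = 4), so the spread between animals was larger than the mean. Mouse 34 set most of it: without that animal the mean was 0.00053. Without mice 34 and 36, whose LNA218 libraries had the highest choroid plexus sums, the medians were -0.078 for immediate-early and -0.14 for later genes. All 8 striatal markers, led by Ppp1r1b, were above 0 in every library, and their sums in mice 33 to 36 were 292, 407, 282 and 461 CPM in LNA218, against 436, 249, 321 and 326 CPM in NC. Sums of the 8 hippocampal markers were 509, 381, 432 and 409 CPM in LNA218, against 467, 585, 445 and 439.7 CPM in NC. The part of such neighbouring tissue in the members' values was not tested.

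In mice 33 and 34 the within-animal differences moved with the base composition of the transcripts. Immediate-early transcripts had a median GC content (share of G and C bases) of 55.0%, with a range of 40.0 to 68.2%. Later transcripts had a median of 46.8%, from 39.8 to 64.1%, and all tested genes 50.8%. Over the 34 members, GC content and the within-animal difference had rank correlations of -0.66, 0.81, 0.031 and 0.043 in mice 33, 34, 35 and 36. Transcript length gave 0.32, -0.63, 0.092 and -0.39 over the same members. The members of an animal share the same 2 libraries, so these values only describe them. Over the 10294 genes whose mean log2 CPM exceeded 3, GC content gave -0.62, 0.69, 0.23 and -0.21. Over those genes transcript length gave 0.34, -0.57, 0.12 and -0.28. In mouse 34 the members with the lowest GC content, among them Bdnf, Inhba, Pcsk1, Tiparp and Ptgs2, were lower in LNA218, and GC-rich members such as Gadd45g, Ier2, Vgf and Junb were higher. Mitochondrial transcripts made up 3.68, 1.87, 2.36 and 3.65% of counts in LNA218 of mice 33 to 36, against 3.15, 3.56, 3.503 and 3.69% in NC.

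Each library was then corrected for GC content and transcript length (a spline with 5 degrees of freedom for each). After this correction the class medians lay closer together in mice 34 and 35 and farther apart in mice 33 and 36. Those of the immediate-early genes were -0.020, 0.066, -0.0081 and -0.064 in mice 33 to 36 (mean -0.0066 ± 0.054, SD, n = 4). Those of the later genes were -0.12, 0.049, -0.087 and 0.010 (mean -0.037 ± 0.080, SD, n = 4). Immediate-early minus later had a mean of 0.030, against 0.11 before the correction. Again edgeR's quasi-likelihood test called 0 members and 0 genes (0%), and the lowest adjusted p of a member was 0.938 in edgeR. At an unadjusted p under 0.05 it gave 2 members, against 4.63% of all 14210 genes. These 2 were Gadd45g, at a log2 fold change of 0.26 ± 0.11, and Nr4a3, at -0.22 ± 0.092. Dusp5, at 0.12 ± 0.076, was then higher in LNA218 in 4 of 4 animals, as were 6.95% of all genes. Nrn1, at -0.18 ± 0.14, was lower in LNA218 in 3 of 4 animals. Its corrected differences were 0.21, -0.72, -0.13 and -0.10 in mice 33 to 36, against -0.027, -0.22, -0.26 and -0.034 before. The correction used 1 transcript model per gene, for Nrn1 a model of 691 bases, and other models were not tested. Junb, Egr4, Nr4a1, Arc, Gadd45b and Pcsk1 changed the sign of their fold change.

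**Figure D4:**
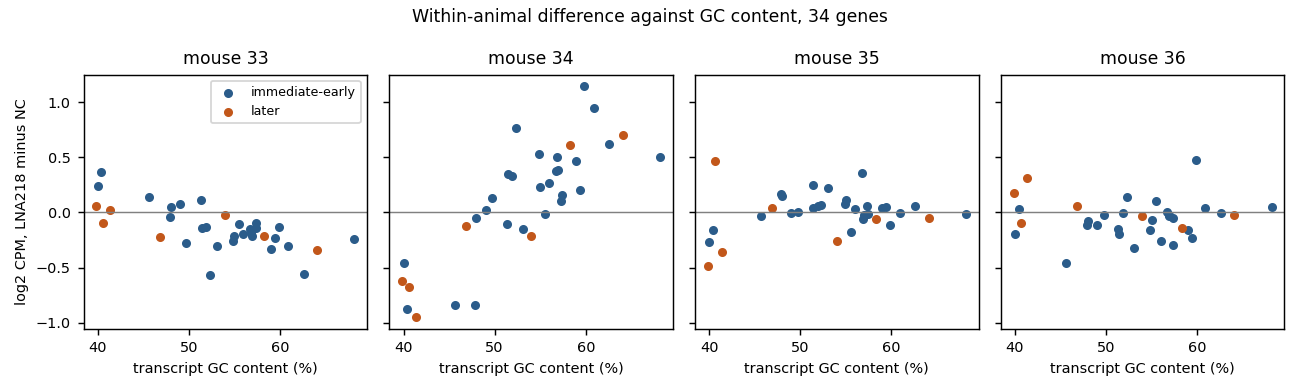
Within-animal log2 CPM difference, LNA218 minus NC, against the GC content of each member's transcript (%), one panel per animal, with immediate-early genes in blue and later genes in orange. The points slope downward in mouse 33 and upward in mouse 34, with rank correlations of -0.66 and 0.81, and show little slope in mice 35 and 36.

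Levels of the immediate-early genes also varied between animals. The medians had the same order in both hemispheres, with mice 34 and 35 close together in NC. As the median over the 27 genes of log2 CPM minus each gene's mean over the 8 libraries, mice 33, 34, 35 and 36 had -0.16, 0.36, 0.17 and -0.28 in LNA218, against 0.016, 0.13, 0.12 and -0.20 in NC. Mouse 36 was the lowest of the animals for 21 of 27 immediate-early genes (77.8%), against 20.4% of all tested genes. Mouse 34 was the highest for 18 of 27, against 15.6% of all genes. Its LNA218 library held the highest of the 8 values for 18 of the 27 genes, and its NC library for 4. The order was there after the GC and length correction too: LNA218 stood at -0.053, 0.23, 0.11 and -0.28 and NC at 0.0096, 0.22, 0.088 and -0.21 in mice 33 to 36. Mouse 36 was then lowest for 22 of 27 genes (81.5%), against 24.2% of all genes.

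Later genes overlapped with that order in part. Their corrected medians in mice 33 to 36 were -0.046, 0.19, -0.25 and -0.056 in LNA218, against 0.11, 0.090, -0.12 and -0.056 in NC. Mouse 36 was lowest for 1 of 7 before the correction, Pcsk1, and for 2 of 7 after it, Pcsk1 and Vgf. Mouse 34 was highest for 2 of 7 before the correction and for 4 of 7 after it, and mouse 35 had the lowest corrected medians.

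For the immediate-early genes the range between the highest and the lowest animal (mean of both hemispheres) had a median of 0.55 on the log2 scale, and the mean absolute difference between hemispheres a median of 0.20. The corresponding medians were 0.47 and 0.28 for the later genes and 0.30 and 0.22 for all tested genes. A range over 4 animals and a mean absolute difference between hemispheres are unlike measures. A range above the difference therefore does not alone show that animals varied more than hemispheres. The median ratio of range to difference was 2.83 for immediate-early genes, 1.41 for later genes and 1.31 for all tested genes. The animal range exceeded the hemisphere difference for 26 of 27 immediate-early genes, 6 of 7 later genes and 70.7% of all genes. The exception among the immediate-early genes was Tiparp, and among the later genes Scg2.

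**Figure D5:**
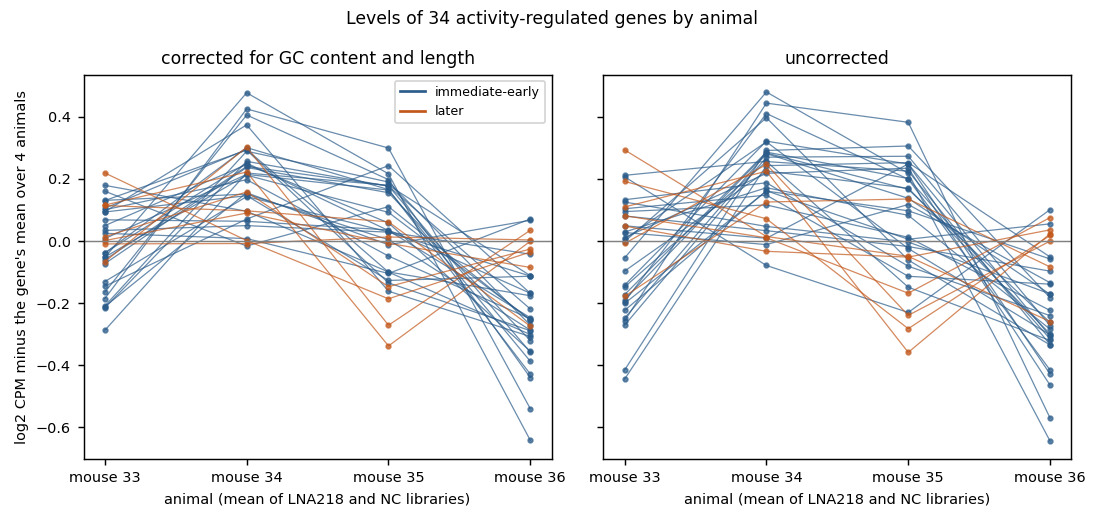
Log2 CPM of each member by animal (mean of the LNA218 and NC libraries) minus its mean over the 4 animals, with the GC and length correction on the left and without it on the right. Most immediate-early genes (blue) peak in mouse 34 and are lowest in mouse 36 on both panels. On the corrected panel mouse 34 is also the highest for 4 of the 7 later genes (orange), and mouse 36 the lowest for 2 of them.

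A test of the animal terms of the same model was added after this order had been seen. With all 4 animals and no correction, edgeR's quasi-likelihood test called 0 members and 1 gene of 14506 (0.00689%), Gh, the pituitary growth hormone. At an unadjusted p under 0.05 it gave 13 of 27 immediate-early and 0 of 7 later genes, against 2.01% of all genes. After the GC and length correction it called 3 members among 17 of 14210 genes (0.12%). They were Fos (adjusted p = 0.029), Nr4a1 (0.029) and Fosb (0.038) by edgeR's quasi-likelihood test. Corrected log2 CPM in mice 33, 34, 35 and 36 were 5.83, 6.40, 6.19 and 5.55 for Fos, 7.86, 8.20, 8.07 and 7.47 for Nr4a1, and 4.38, 4.99, 4.87 and 4.03 for Fosb. Mouse 34 was the highest and mouse 36 the lowest for each of these 3. The haemoglobin genes Hbb-bs, Hba-a1 and Hba-a2 and the pituitary genes Gh and Pomc were among the other 14 called genes.

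The calls depended on mouse 34. Without it and without the correction, 12 of 34 members were called between the remaining 3 animals, among 271 of 14522 genes (1.87%). They were Fos, Fosb, Fosl2, Junb, Egr2, Egr4, Nr4a1, Nr4a3, Dusp1, Ier2, Per1 and Gadd45b, all immediate-early, with adjusted p from 0.00030 (Fosb) to 0.049 (Nr4a3) in edgeR. Of the 3 animals, mouse 35 was the highest for each of them but Nr4a3, and mouse 36 the lowest for each but Junb and Gadd45b. Leaving out mouse 33, 35 or 36 in turn gave 0 members each. Later genes gave 0 of 7, and the difference between the classes was not tested. Choroid plexus sums in mice 34 and 36 were 2621 and 1747 CPM in LNA218, against 35.4 and 86.0 CPM in NC. In LNA218 and in NC, Fos, Fosb and Nr4a1 were lowest in mouse 36 and higher in mice 34 and 35 than in mouse 33. The part of choroid plexus tissue in this order was not tested.

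Genes around this pathway were counted by lists. Of 36 genes upstream of the members (calcium channels, kinases, CREB, SRF and MEF2 factors and their coactivators), 0 were called by edgeR and 0 by DESeq2, with 0 at an unadjusted p under 0.05. On the lower side stood 30 and on the higher side 6, with a median log2 fold change of -0.066 against -0.0096 for all genes. The median log2 difference of this list was 0.049, -0.28, 0.032 and -0.046 in mice 33 to 36, so mouse 34 gave most of it. Among all tested genes 7666 were on the lower side and 6840 on the higher. Ep300, a CREB coactivator and acetyltransferase, had a log2 fold change of -0.26 ± 0.16, and Cacna1c, the main L-type calcium channel subunit, -0.22 ± 0.12. Lower in LNA218 in 4 of 4 animals were 3 of the 36, Ep300, Camk2b and Map2k1, the last pair named only for that pattern, against 4.05% of all genes. On the higher side were Mapk3, the kinase ERK1, at 0.077 ± 0.10, and Adcy8, a calcium-stimulated adenylyl cyclase, at 0.081 ± 0.11.

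Of 44 further activity-regulated genes, 43 were tested. By edgeR 0 were called, 0 by DESeq2 and 0 at an unadjusted p under 0.05, with 21 on the higher and 22 on the lower side and a median log2 fold change of -0.0016. Sgk1, a kinase that regulates ion transport, had 99.3, 96.6, 140.0 and 82.3 CPM in LNA218 of mice 33 to 36, against 94.0, 79.2, 132 and 72.8 CPM in NC. It was higher in LNA218 in 4 of 4 animals, with overlapping groups and a log2 fold change of 0.16 ± 0.093. It was the 1 gene of the 43 with that pattern, and 5 (Amigo3, Arl5b, Kdm6b, Mmp9 and Rasd1) were lower in 4 of 4, against 4.58% and 4.05% of all genes. Kdm6b, Mmp9 and Rasd1 are named here only for that pattern. Between animals it was called after the correction (adjusted p = 0.042 by edgeR), with its highest level in mouse 35 and its lowest in mouse 36. Rgs4, a brake on G protein signalling, had a log2 fold change of 0.10 ± 0.093, Arl5b, a small GTPase of membrane traffic, -0.25 ± 0.17, and Amigo3, a cell adhesion protein, -0.34 ± 0.22. With all 4 animals and no correction, 0 of the 43 were called between animals. Without mouse 34, Homer1, Trib1 and Sgk1 were called, 3 of 43. In that run 0 of 36 upstream genes were called, and 271 of all 14522 genes (1.87%).

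The authors' deposited table, from a likelihood-ratio test of unstated model terms, held all 34 members. In the authors' deposited table, 0 members passed an adjusted p of 0.05. Shares of all its rows under 0.05, adjusted or unadjusted, are not given here, so the members' p-values below stand without a background. The sign of the log2 fold change in the authors' deposited table was positive for 22 and negative for 5 of the 27 immediate-early genes, and negative for all 7 later genes. Over all 14884 rows of the authors' deposited table, 44.4% were positive. The class medians in the authors' deposited table were 0.083 for immediate-early and -0.18 for later genes, against -0.016 over all rows. In the blocked model the same classes split 15 to 12 and 2 to 5. Its smallest p among the members was that of Nrn1, with a log2 fold change of -0.18, p = 0.0060 and adjusted p = 0.244 in the authors' deposited table. Ptgs2, Bdnf and Vgf followed in the authors' deposited table, with log2 fold changes of -0.30, -0.20 and -0.13 and unadjusted p of 0.019, 0.024 and 0.027. Of these, Vgf was on the higher side in the blocked model described here, at 0.070 ± 0.16.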

How the data were processed

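Poly(A) RNA was sequenced from 8 libraries, and the submitters' processing notes name Salmon, edgeR and the mouse build GRCm39, with no version or role. The deposited estimated counts per gene were not scaled, and 69.9% of them were not whole (tolerance 1e-06). The authors' natural log table held ln(CPM + 1), equal to within 0.00303 to the value from these counts, and was used for that check only. In the authors' deposited table, the log2 fold change, average log2 CPM, likelihood-ratio score and p-value are theirs, per the file headers.

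Estimated counts were rounded, genes were filtered by filterByExpr (minimum count 10, 378 removed) and tested with edgeR 4.0.16 in R 4.3.3 (TMM, quasi-likelihood, robust), at an adjusted p of 0.05. Log2 CPM used a prior count of 2, and the SE comes from F. The animal was a block because the series' design gives both hemispheres of each mouse. Paired deviations correlated at 0.079, -0.63, 0.45 and 0.19 in mice 33 to 36. No 2 libraries agreed within sampling noise (lowest median chi-square 1.71, against 0.455). GC content and length were matched for 14210 genes (98.0%), all 34 members included. Alternatives were DESeq2 1.42.0, its size factors, no filter, a hemisphere term, the correction, each animal left out, no block and another split of the classes. Members and lists were chosen with earlier results of these data known. Statistics were listed in full for the 3 immediate-early genes with the smallest p on each side, the 7 later genes and Fos, Arc, Egr1 and Npas4. Fosb and Nr4a1 were added after their values were seen. Of the pathway lists, the 2 genes with the smallest p on each side were named. The script was tested on simulated data.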

Additional observations from a re-analysis of the deposited data

Results flagged for a closer look

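One value of the members stood apart from the others of its group: Nrn1 in the NC library of mouse 35, at 7.70 on the log2 CPM scale (208 CPM), against 228 to 233 CPM in the other 3 NC libraries. Its gap to the nearest NC library, divided by the range of the group, was 0.835, above Dixon's 95% critical value for 4 samples. The members gave 68 such groups, and chance flags about 1 in 20.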

How the results depend on the processing

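No member passed an adjusted p of 0.05 in LNA218 against NC, by edgeR or DESeq2, in the planned model or under any alternative run, the added one without mice 34 and 36 included. Without the replicate block, 0 members and 0 genes were called, with medians of 0.020 for immediate-early and -0.11 for later genes, and Fosb moved to 0.017. Over all genes 13 were called by DESeq2's Wald test, 13 without mice 34 and 36, and 0 to 12 when each animal was left out in turn. The immediate-early median ran from -0.078 to 0.045 over all alternatives and was -0.016 after the GC and length correction. The later median ran from -0.14 to -0.027, and immediate-early minus later from 0.00053 to 0.17. The hemisphere term gave no value for that difference. Counting Fosl2, Dusp5, Dusp6, Plk2, Ptgs2, Gadd45g and Tiparp as later genes gave 0.090. Between animals, the correction gave 3 members and 17 genes, leaving out mice 34 and 36 gave 16 genes, and leaving out each animal in turn gave 0 to 12 members and 0 to 271 genes.

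The sign of a member's log2 fold change depended on the setting as follows, and the cause was not tested. The hemisphere term gave 0.088 for Pcsk1. The GC and length correction with the block gave -0.050 for Junb, -0.033 for Egr4, -0.00087 for Nr4a1, -0.021 for Arc, -0.016 for Gadd45b and 0.041 for Pcsk1. Leaving out each animal in turn gave -0.13 to 0.036 for Fosb, -0.093 to 0.042 for Btg2, -0.13 to 0.012 for Per1, -0.023 to 0.13 for Fos, -0.16 to 0.23 for Junb, -0.026 to 0.038 for Egr1, -0.012 to 0.16 for Egr2, -0.067 to 0.016 for Egr3, -0.066 to 0.18 for Egr4, -0.086 to 0.12 for Nr4a1, -0.33 to 0.0075 for Nr4a2, -0.14 to 0.12 for Arc and -0.048 to 0.098 for Sik1. It gave -0.11 to 0.16 for Dusp1, -0.082 to 0.33 for Ier2, -0.11 to 0.33 for Ier5, -0.082 to 0.15 for Gadd45b, -0.34 to 0.083 for Tiparp, -0.14 to 0.14 for Nptx2, -0.13 to 0.21 for Vgf, -0.44 to 0.00066 for Inhba, -0.29 to 0.098 for Pcsk1, -0.025 to 0.050 for Plk2, -0.14 to 0.0033 for Npas4 and -0.031 to 0.029 for Dusp6. The remaining members kept their sign, at -0.26 to -0.078 for Fosl2, -0.098 to -0.0054 for Jun, -0.44 to -0.11 for Nr4a3, 0.075 to 0.25 for Dusp5, 0.074 to 0.51 for Gadd45g, -0.31 to -0.065 for Ptgs2, -0.35 to -0.076 for Bdnf, -0.17 to -0.092 for Nrn1 and -0.0997 to -0.0053 for Scg2. The median standard error of a member was 0.13 in the planned model.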
